A study of Mus musculus with 11 samples.

Results

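Homeobox transcription factors were examined in the mammary glands of mice bearing 2 premalignant lines, PN1a and PN1b, to ask whether the lines differed in the Hox code and related factors that record position in the body. Members were the probe sets annotated to a single gene of Hox clusters A to D or of the Msx, Dlx, Pitx, Lhx, Pbx, Meis, Irx or Cdx families or the sine oculis family (Six2 to Six6 here), chosen by gene symbol alone. The array held 75 such probe sets for 62 genes, out of 12422 probe sets that were not array controls. Hox genes contributed 38 probe sets for 31 genes, and the other families contributed 37 probe sets for 31 genes. Both lines came from opposite-side outgrowths in 1 mouse and were kept by serial transplantation for more than 10 generations. Their epithelium was p53-null (Trp53-/-, Balb/c) in both groups, and it was transplanted into the cleared #4 fat pads of 3 week old wildtype Balb/c female hosts. Total RNA was taken from whole glands at 8 weeks post-transplantation, from 5 PN1a and 6 PN1b samples. PN1a has a high and PN1b a low tumor-forming potential by the study's description. Each group was therefore 1 line, the RNA also held wildtype host stroma, and no gland without a lesion was analysed here.

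Homeobox genes encode transcription factors that bind DNA through a conserved domain, the homeodomain. The Hox genes lie in 4 clusters, and their order along a cluster follows the order in which they are used along the body axis, so that anterior (paralogs 1 to 4), central (5 to 8) and posterior (9 to 13) genes mark successive positions. Adult tissues, and the fibroblasts within them, retain much of this pattern. In the mammary gland, Hox, Msx and Dlx genes take part in placing and forming the embryonic bud and in later ductal growth, and Pbx and Meis proteins bind DNA together with Hox proteins.

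The 11 samples had median intensities of 8.57 to 9.51, and all values below are log2 intensities or differences of them, PN1a minus PN1b. The labels do not say whether each sample was a separate mouse, so the tests reflect variation among these samples and nothing wider. Some PN1b titles, and no PN1a title, have the form of number ranges, and no source consulted says whether those samples were pools of mice. Titles carried 3 different endings of unstated meaning. All PN1a samples, PN1b 5 and PN1b 6 shared ending 1, PN1b 2 carried ending 2, and PN1b 1, 3 and 4 carried ending 3. Mean marker levels placed PN1a 1 and PN1a 2 apart from the other samples. Luminal epithelial markers (19 of 21 measured) averaged 3.91 in PN1a 1 and 4.92 in PN1a 2, against 5.16 to 5.86 elsewhere. Fibroblast markers (16 of 16) averaged 5.07 and endothelial markers (11 of 12) 2.65 in PN1a 2, while every other sample was at 6.30 or above and 3.76 or above. Macrophage markers (14 of 14) averaged 4.53 to 5.86 in PN1a and 3.31 to 4.40 in PN1b, so the groups did not overlap. Basal and myoepithelial markers (13 of 14) averaged 4.81 to 5.95 in PN1a against 5.38 to 6.28 in PN1b. Adipocyte markers (12 of 14) averaged 2.87 to 3.86 against 3.52 to 3.77. The other lists overlapped as well, with skeletal muscle (20 of 20) at 2.39 to 2.54 and 2.22 to 2.75, nerve and glia (11 of 14) at 3.10 to 3.59 and 3.34 to 4.09, T and NK cells (15 of 18) at 2.35 to 3.15 and 2.67 to 3.41, and B and plasma cells (12 of 13) at 2.75 to 3.34 and 3.15 to 4.08. The only markers with a value at the table's lowest intensity were Pparg, Myh2, Cd3d and Snap25. In whole glands, fewer cells of a type and less RNA per cell cannot be told apart.

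No homeobox member differed between PN1a and PN1b past the test. In the limma fit over all 12422 probe sets, a probe set was called when its Benjamini-Hochberg adjusted p was under 0.05 and its fold change was at least 1.5. That rule called 309 probe sets, 2.49% of all, of which 108 (0.869%) were higher and 201 (1.62%) lower in PN1a. It called 0 of the 75 homeobox probe sets, and the smallest adjusted p among them was 0.0602. At an unadjusted p under 0.05 there were 14 members (5 higher and 9 lower in PN1a), a share of 18.7% against 18.9% of all probe sets. The methods' t-test, at its own threshold, called 2 members, Hoxa6 and Six4, against 5.74% of all probe sets, and 0 members after Benjamini-Hochberg adjustment. The PN1a and PN1b values failed to overlap for 1 member, Six4, or 1.33% of members against 3.96% of all probe sets (1.58% with PN1a above and 2.38% with PN1a below).

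The member differences were also small in size. They ran from -0.91 for a Hoxa6 probe set to 1.04 for Cdx4, with a median of -0.02, and 33 lay above 0 and 42 below. The median absolute difference was 0.19, against 0.27 over all probe sets. The 95% interval lay within a 2-fold change in either direction for 51 of 75 members (68.0%, against 64.5% of all probe sets), and for the remaining 24 a change of 2-fold or more lay inside the interval. The widest bound was a 3.32-fold change, for Cdx4.

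**Figure D1:**
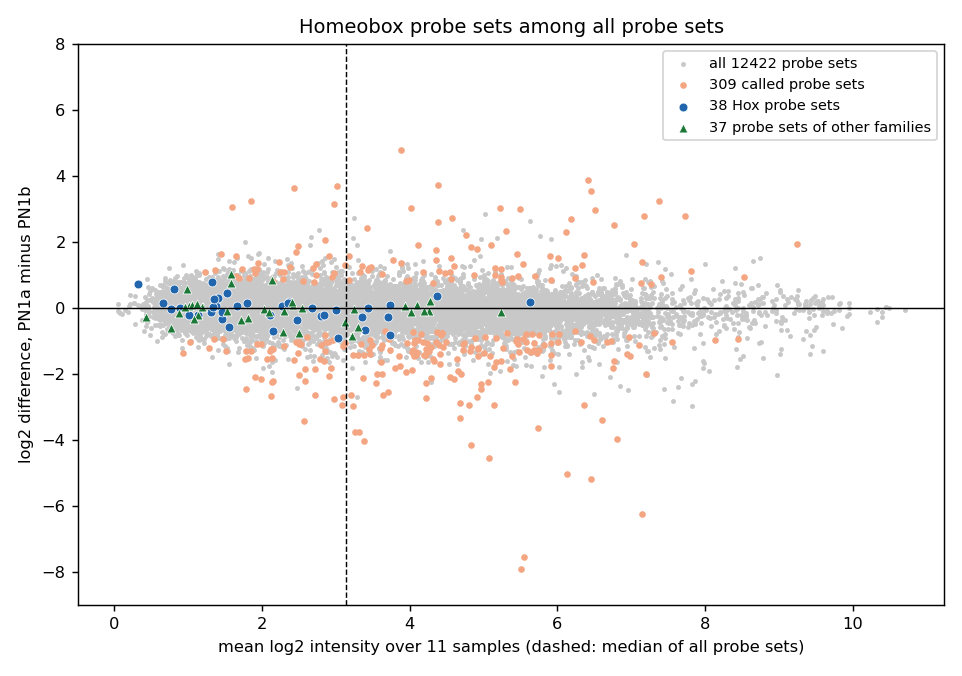
Each point is 1 of the 12422 probe sets, with its mean log2 intensity on the horizontal axis and its log2 difference, PN1a minus PN1b, on the vertical axis; Hox members are blue circles, other homeobox members green triangles, called probe sets orange and the rest gray. The members lie between -0.91 and 1.04 and mostly in the dimmer part of the array, where 57 of 75 fall below the median level.

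Most members gave weak signals, which set the precision of these comparisons. The mean level was below the median of all probe sets for 57 of 75 members (76.0%), and 22 of 825 member values, in 11 probe sets, sat at the lowest intensity of the table. Intensity depends on the probes as well as on the transcript, so these levels do not rank the genes. The median residual SD was 0.48 among the 57 dim members and 0.29 among the 18 brighter ones. Over all probe sets it was 0.50 for the dim and 0.36 for the bright. Neither part held a called member, and 1.40% of all dim and 3.57% of all bright probe sets were called. Among 57 and 18 members, 0 is near such shares, so it does not set the members apart.

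The 4 Hox clusters were each measured in part, and each had genes on both sides of 0. Cluster A was measured by 10 of its 11 genes, cluster B by 9 of 10, cluster C by 5 of 9 and cluster D by 7 of 9. With 1 probe set per gene, the median difference was -0.13 for cluster A, 0.05 for cluster B, -0.06 for cluster C and 0.16 for cluster D, against -0.03 over all 8251 genes. The probe set with the highest mean stood for its gene, and for Hoxa4, Hoxa6 and Hoxb8 that was one with the suffix _r_at. Hoxa6 therefore entered at 0.09, where its other probe set gave -0.91. In cluster A 3 genes were above 0 and 7 below, in cluster B 6 and 3, in cluster C 2 and 3, and in cluster D 5 and 2. At an unadjusted p under 0.05 there were 4 of 14 probe sets in cluster A, 0 of 10 in B, 1 of 5 in C and 1 of 9 in D. The share over all probe sets was 18.9%, and counts this small do not set 1 cluster apart.

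The per-sample view gave the same picture of overlap. Each sample's median deviation over the genes of cluster A ran from -0.35 to 0.11 in PN1a and from -0.13 to 0.18 in PN1b. For cluster B the ranges were -0.17 to 0.15 and -0.16 to 0.13. Cluster C ran from -0.29 to 0.21 in PN1a against -0.18 to 0.46 in PN1b, and cluster D from -0.28 to 0.17 and from -0.33 to 0.15. The PN1a and PN1b ranges overlapped for all 4 clusters, and in none did the samples of 1 line stand together on 1 side.

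By position along the axis, the central genes held most of the Hox probe sets with a small unadjusted p. Of 14 central probe sets 4 (Hoxa5, Hoxa6, Hoxc6 and Hoxd8, 28.6%) were lower in PN1a at an unadjusted p under 0.05, a share to be set against 11.3% of all probe sets in that direction. Of 12 anterior probe sets 1 of Hoxa4 was higher (7.65% of all probe sets were), and of 12 posterior probe sets 1 (Hoxa9) was lower. The median difference by gene was -0.12 for 8 anterior, -0.21 for 11 central and 0.16 for 12 posterior genes. The central median was 0.07 among the 7 samples that share ending 1, so its direction depended on which PN1b samples were compared. Hoxa6 entered that median by its other probe set, 102580_r_at. The 4 central probe sets named above stayed lower in PN1a within ending 1. The difference was smaller there for Hoxa6 (-0.54) and larger for Hoxa5 (-0.78), Hoxc6 (-0.74) and Hoxd8 (-1.01). Their adjusted p-values in that limma fit ran from 0.672 to 0.747. None of the 14 central probe sets was called.

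In cluster D the genes lay in order of sign. Hoxd1 (-0.21 and -0.14 in its 2 probe sets) and Hoxd8 (-0.81 and -0.27) were below 0, and all 5 posterior genes, Hoxd9 (0.16), Hoxd10 (0.72), Hoxd11 (0.16), Hoxd12 (0.27) and Hoxd13 (0.57), were above it. No posterior cluster D gene reached an unadjusted p under 0.05, and within ending 1 Hoxd11 stood at -0.36. This order was noticed after the values were seen, and no test was made of it. The Hoxd10 value rested on PN1a 1 and PN1a 2, the only samples above the lowest intensity, and it was 0.14 without PN1a 2. Without both samples Hoxd10 gave 0.00, Hoxd9 gave -0.03 and the median of cluster D was 0.00, so the order of signs did not hold there.

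**Figure D2:**
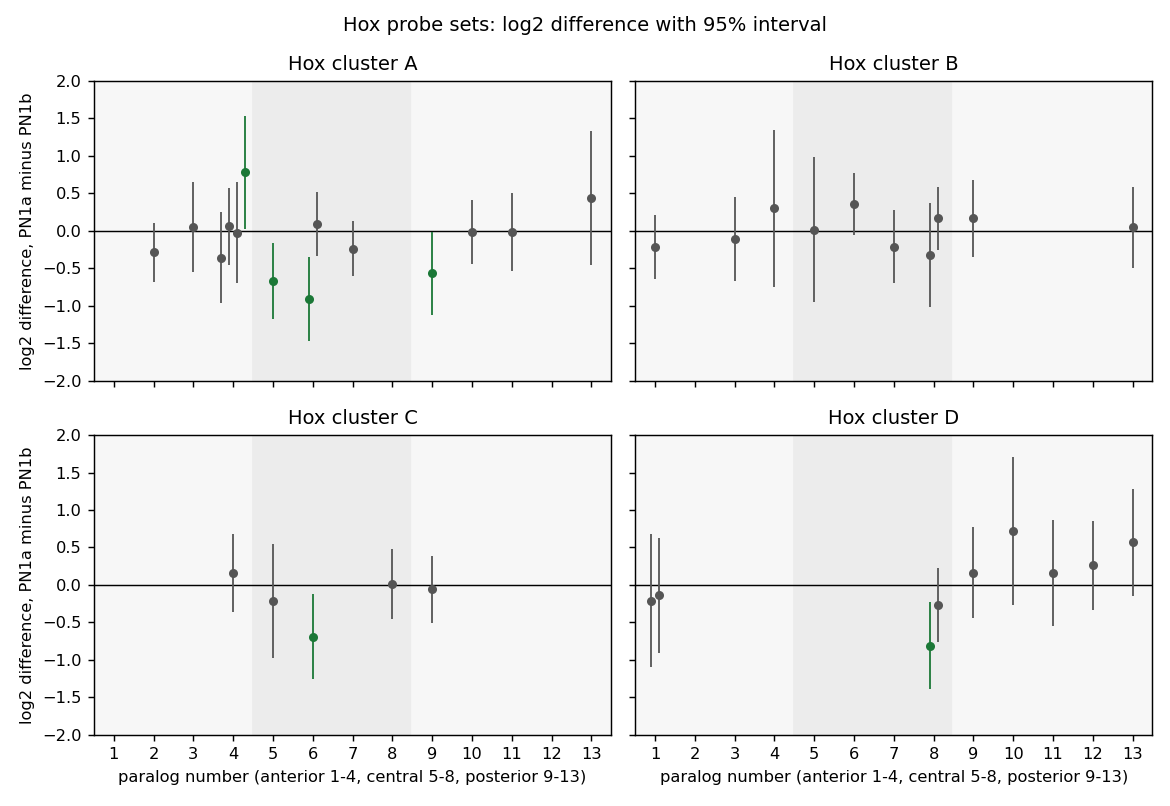
Log2 difference, PN1a minus PN1b, with its 95% interval for each Hox probe set, by paralog number on the horizontal axis and with 1 panel per cluster; green marks an unadjusted p under 0.05 and gray marks the others. Genes of every cluster lie on both sides of 0, and the green points below 0 are Hoxa5, Hoxa6, Hoxa9, Hoxc6 and Hoxd8.

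**Figure D3:**
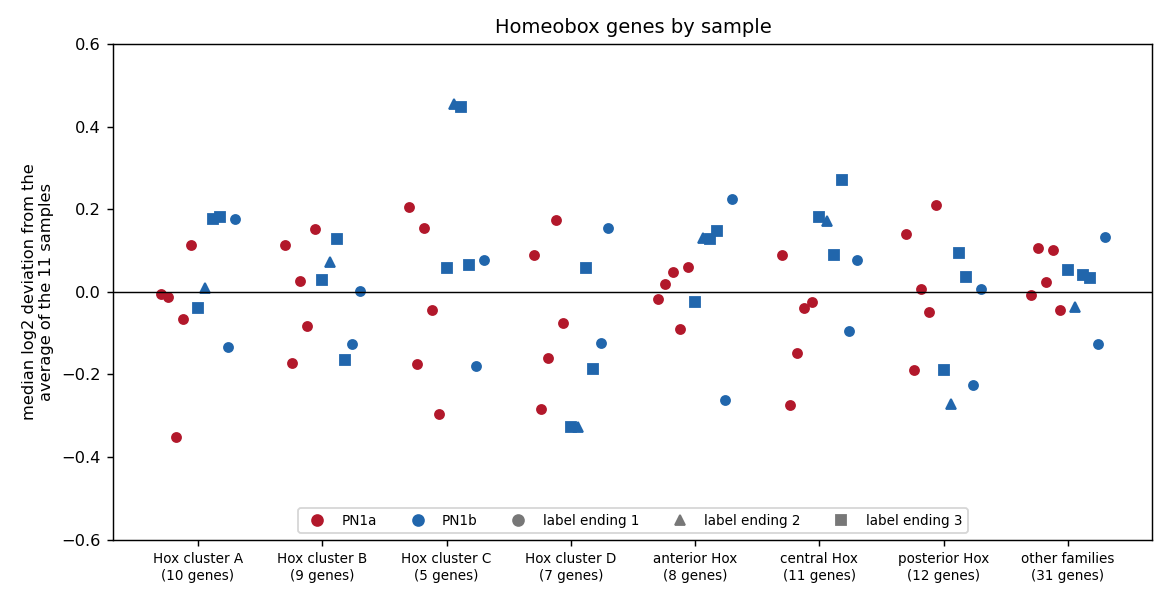
Median log2 deviation from the average of the 11 samples, over the genes of each Hox cluster, of each axial segment and of the other families, with 1 point per sample, red for PN1a and blue for PN1b, shaped by label ending. PN1a and PN1b points overlap in every column, as in cluster A, where PN1a runs from -0.35 to 0.11 and PN1b from -0.13 to 0.18.

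Among Hox genes, Hoxa6 came nearest to the threshold. Its probe set 102579_f_at read 2.63, 3.39, 2.07, 2.21 and 2.38 in PN1a 1 to 5, and 2.81 at the lowest, 3.45 at the median and 3.88 at the highest in PN1b. PN1a 2 was as high as the middle of PN1b, and the other PN1a samples lay below all PN1b samples. The difference was -0.91 (SE 0.26, 95% interval -1.47 to -0.35, adjusted p = 0.0810). A further Hoxa6 probe set, 102580_r_at, gave 0.09 (SE 0.20). Probe sets with the first of these suffixes can match sequences of related genes, so which transcript carried the lower signal was not settled by the array.

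Hoxd8, a central gene of cluster D, was measured by 2 probe sets that were both below 0. Probe set 160460_at read 3.83, 2.36, 3.58, 3.25 and 3.47 in PN1a 1 to 5, and from 3.56 through a median of 4.12 to 4.62 in PN1b. The groups overlapped through the lowest PN1b sample, and the lowest value of all was in PN1a 2. The difference was -0.81 (SE 0.27, 95% interval -1.39 to -0.23, adjusted p = 0.123), and probe set 93221_at gave -0.27 (SE 0.23).

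Hoxa5, reported in breast cancer cells to activate transcription of the p53 gene, read 2.67, 3.13, 2.99, 2.61 and 3.78 in PN1a 1 to 5. In PN1b it ran from 3.27 through a median of 3.80 to 3.98. Only PN1a 5 reached into the PN1b range. The difference was -0.67 (SE 0.24, 95% interval -1.18 to -0.17, adjusted p = 0.139). In these glands the p53-null epithelium was common to both groups.

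Hoxc6 read 1.77, 0.76, 2.30, 1.95 and 2.06 in PN1a 1 to 5, and from 2.13 through 2.42 to 2.89 in PN1b. PN1a 3 overlapped PN1b, and PN1a 2 was far below the rest of its group. The difference was -0.69 (SE 0.26, 95% interval -1.26 to -0.13, adjusted p = 0.173). The low value of PN1a 2 fell in the sample with the lowest fibroblast and endothelial marker levels. The part of those levels in this result was not tested.

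The Hox genes with known mammary roles showed no called difference. Hoxa9, Hoxb9 and Hoxd9, paralogs that are needed together for growth of the gland in pregnancy, differed by -0.57 (SE 0.26, adjusted p = 0.254), 0.17 (SE 0.24, adjusted p = 0.751) and 0.16 (SE 0.28, adjusted p = 0.803). Hoxa9 ran from 0.93 to 1.48 in PN1a and from 0.92 to 2.37 in PN1b, so that the PN1b samples enclosed the PN1a samples. Hoxb6 read 4.48, 5.17, 4.36, 4.34 and 4.48 in PN1a 1 to 5 and from 4.01 through 4.19 to 4.44 in PN1b, a difference of 0.36 (SE 0.19, 95% interval -0.05 to 0.78, adjusted p = 0.328). PN1a 2 stood above all other samples, PN1a 1 and 5 lay just above the top of PN1b, and PN1a 3 and 4 lay inside its range. Hoxd10 was at the lowest intensity of the table in 9 of 11 samples, the exceptions being PN1a 1 at 0.56 and PN1a 2 at 3.05. Of 22 mammary-linked members listed from general knowledge, 17 were measured, with 0 called, a median of -0.10, and 1 higher and 5 lower at an unadjusted p under 0.05, against 7.65% and 11.3% of all probe sets.

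**Figure D4:**
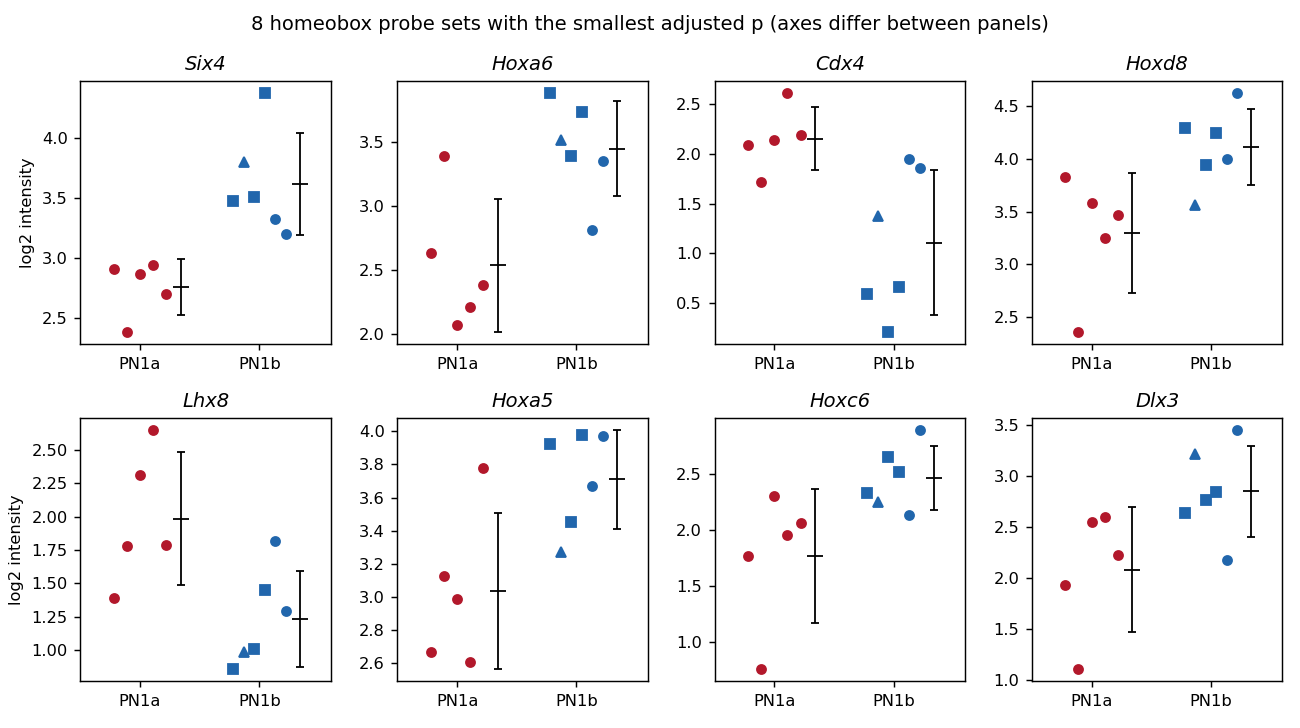
Log2 intensity in each sample for the 8 members with the smallest adjusted p, 1 panel each, with PN1a and PN1b side by side, a bar for the mean and SD, and a circle, triangle or square for label endings 1, 2 and 3. The groups are separate for Six4 only, and for Cdx4 the PN1b circles at 1.95 and 1.86 sit among the PN1a values.

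Of the 7 probe sets for cofactors of Hox proteins, 1 of Pbx3 and that of Meis3 had an unadjusted p under 0.05, and none was called. Over all probe sets these shares were 18.9% and 2.49%. Pbx3 was measured by 3 probe sets at -0.74, -0.43 and -0.11, the first (93616_g_at) with an adjusted p of 0.184, and Pbx2 stood at 0.06 (SE 0.23). Meis1 gave 0.03 (SE 0.38, 95% interval -0.79 to 0.85, adjusted p = 0.981) and Meis2 -0.05 (SE 0.20). Meis3 gave 0.58 (SE 0.27, unadjusted p = 0.0478, adjusted p = 0.259) over all samples, 1.10 within ending 1 (adjusted p = 0.557) and 0.31 without PN1a 1 and 2. The Meis1 value had no stable sign, and it was -0.14 within ending 1.

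Msx and Dlx genes act in the mammary bud, in skin and its appendages and in limbs, downstream of signals such as BMPs. The 3 Msx genes were all below 0, with Msx1 at -0.10 (SE 0.19), Msx2 at -0.34 (SE 0.39, 95% interval -1.17 to 0.50, adjusted p = 0.693) and Msx3 at -0.36 (SE 0.26). Msx2 turned to 0.43 within ending 1. The 6 Dlx genes went both ways. Dlx3, a regulator of epidermis, hair and bone, read 1.93, 1.11, 2.55, 2.60 and 2.22 in PN1a 1 to 5 and from 2.18 through 2.80 to 3.45 in PN1b. PN1a 3, 4 and 5 lay inside the PN1b range and PN1a 1 and 2 below it. The difference was -0.76 (SE 0.29, 95% interval -1.40 to -0.13, adjusted p = 0.180). Dlx5 gave 0.85 (SE 0.35, adjusted p = 0.205), with its highest value, 3.83, in PN1a 2, and Dlx1 gave -0.62 (SE 0.28, adjusted p = 0.244), with PN1a 1 at the lowest intensity.

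Six4, a sine oculis family factor of muscle and sensory organ development, had the smallest adjusted p of all members in 1 of its 3 probe sets. Probe set 93001_at read 2.91, 2.38, 2.87, 2.94 and 2.70 in PN1a 1 to 5 and from 3.20 through 3.50 to 4.38 in PN1b. Every PN1a sample was below every PN1b sample. The difference was -0.86 (SE 0.22, 95% interval -1.34 to -0.37, unadjusted p = 0.0020, adjusted p = 0.0602), and it was -0.51 within ending 1. Probe sets 92999_at and 93000_g_at of the same gene gave 0.21 (SE 0.17) and -0.13 (SE 0.18), so the probe sets of Six4 spread over 1.07 and did not share a sign. The other genes of its family, Six2, Six3, Six5 and Six6, lay between -0.27 and 0.12.

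Cdx4, a caudal-type factor that acts upstream of Hox genes in the posterior embryo, had the largest difference of any member. It read 2.09, 1.72, 2.14, 2.61 and 2.19 in PN1a 1 to 5 and from 0.21 through 1.02 to 1.95 in PN1b. The groups overlapped through PN1b 5 (1.95) and PN1b 6 (1.86), the PN1b samples that share ending 1 with PN1a. The difference was 1.04 (SE 0.32, 95% interval 0.35 to 1.73, adjusted p = 0.0990) over all samples and 0.25 within ending 1. Cdx1 and Cdx2 gave 0.03 (SE 0.34) and 0.08 (SE 0.24).

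Among LIM-homeobox genes, Lhx8, a factor of forebrain neurons and oocytes, read 1.39, 1.78, 2.31, 2.65 and 1.79 in PN1a 1 to 5 and from 0.86 through 1.15 to 1.82 in PN1b. PN1a 3 and 4 lay above PN1b and the other PN1a samples inside its range. The difference was 0.75 (SE 0.25, 95% interval 0.20 to 1.29, adjusted p = 0.129). Lhx1, Lhx3, Lhx5, Lhx6 and Lhx9 lay between -0.31 and 0.19. Pitx1, which sets hindlimb identity, gave -0.58 (SE 0.32, adjusted p = 0.347), and -0.24 without PN1a 5, which read 1.61 where the other PN1a samples reached up to 3.73. Pitx3, a factor of the lens and of midbrain neurons, gave -0.10 (SE 0.15).

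Irx3, the only Iroquois gene measured, gave -0.12 (SE 0.26, adjusted p = 0.838), and its sign turned to 0.08 within ending 1 and to 0.26 without PN1a 1 and 2. It read 4.37, 4.81, 5.56, 5.80 and 5.30 in PN1a 1 to 5 and 4.84 to 5.69 in PN1b. Within PN1a its samples had the same order as the mean of the luminal epithelial markers, which was 3.91, 4.92, 5.59, 5.86 and 5.47. This likeness was noticed after the values were seen and was not tested. The PN1b samples did not share the full order, though PN1b 6 was the lowest of them in both (4.84 and 5.16).

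**Figure D5:**
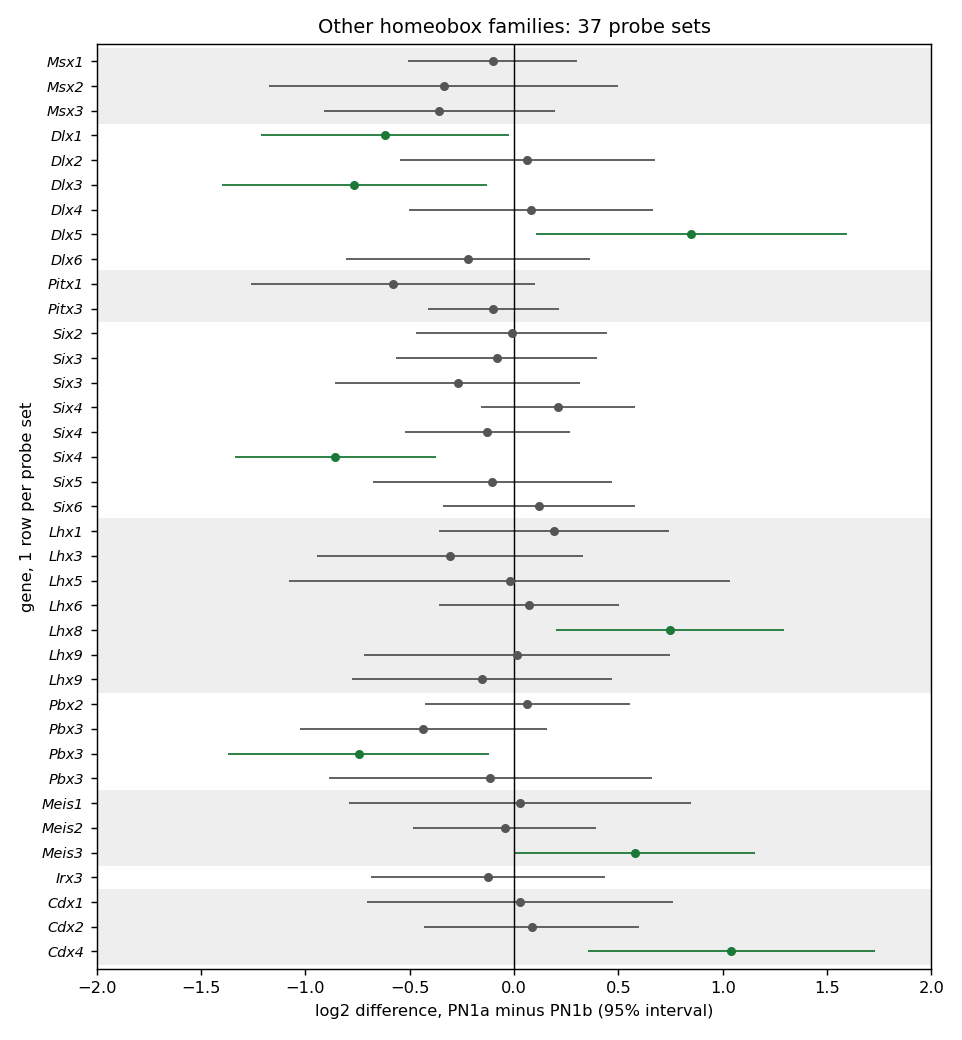
Log2 difference, PN1a minus PN1b, with its 95% interval for each probe set of the Msx, Dlx, Pitx, sine oculis, Lhx, Pbx, Meis, Irx and Cdx families; green marks an unadjusted p under 0.05 and gray marks the others. Cdx4 at 1.04 and Six4 at -0.86 are the extremes, and the remaining Six4 probe sets lie near 0.

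Genes with several probe sets showed how far a single probe set could be read. Of 9 such members, 5 (Hoxa4, Hoxa6, Hoxb8, Lhx9 and Six4) had probe sets on both sides of 0. For Hoxa4, an anterior gene, 1 of 4 probe sets gave 0.78 (SE 0.35, adjusted p = 0.247) and the others lay between -0.36 and 0.06. For no gene did more than 1 probe set reach an unadjusted p under 0.05.

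All 14 members with an unadjusted p under 0.05 had the same sign among the 7 samples of ending 1, which are also in the full comparison. Of these, 9 were smaller there, and their median absolute difference went from 0.76 to 0.63. Over all 75 members, 18 had the opposite sign within ending 1 and 14 without PN1a 1 and 2. Within ending 1 the limma fit called 0 members, with a smallest adjusted p of 0.557, against 0.145% of all probe sets. With the ending as a block it also called 0, with a smallest adjusted p of 0.322, against 0.25% of all probe sets.

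Homeobox genes outside these families did include called genes. Of 102 other homeobox genes listed, 61 were measured, with 0 called higher, 3 called lower and a median difference of -0.13. Over all probe sets 0.869% were called higher and 1.62% lower, and the median over all genes was -0.03. Rhox5, an X-linked homeobox gene of the reproductive organs, ran from 1.56 to 3.60 in PN1a and from 6.61 to 7.49 in PN1b. The groups were far apart, with a difference of -4.56 (SE 0.32, adjusted p = 4.96e-06). Rhox5 remained called within ending 1 (-4.26, adjusted p = 0.0184) and with the ending as a block, which takes the same difference (adjusted p = 0.00173). Hopx, whose homeodomain does not bind DNA, was lower by -1.05 (SE 0.16, adjusted p = 0.00476), and Pou6f1, a POU-domain factor, by -0.96 (SE 0.21, adjusted p = 0.0330). Neither overlapped between the groups, and neither was called within ending 1, where the differences were -1.09 (adjusted p = 0.340) and -1.03 (adjusted p = 0.557). The next in order, Nkx2-3 (0.92, adjusted p = 0.0643) and Cux1 (-0.85, adjusted p = 0.0865), were not called.

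Among 3 further lists, of factors that set Hox expression or pattern the body beside it, 1 gene was called. The called share over all probe sets was 2.49%. The list of chromatin regulators of Hox genes held Polycomb and Trithorax proteins and some others, such as Gmnn and Mllt3. Of these, 20 of 27 were measured, with 0 called and a median of -0.23. The smallest adjusted p-values were those of Ash2l (-0.63, adjusted p = 0.123) and Phc2 (0.48, adjusted p = 0.240). In the retinoic acid pathway, which switches on anterior Hox genes in the embryo, 23 of 28 were measured, with 0 called and a median of -0.12. Its nearest genes were Adh1, an alcohol dehydrogenase (-1.16, SE 0.29, adjusted p = 0.0522), and Crabp2, a retinoic acid binding protein whose groups did not overlap (1.27, SE 0.32, adjusted p = 0.0561). The groups also did not overlap for Aldh1a1 of this list, with PN1a lower (-0.87, adjusted p = 0.0745). Over all probe sets 3.96% did not overlap. Of 29 limb and body-axis patterning factors, 22 were measured, with a median of 0.14. The T-box gene Tbx15 was called lower (-1.06, SE 0.26, adjusted p = 0.0470), though not within ending 1 (-0.90, adjusted p = 0.676), and Egr2 was next (-0.71, adjusted p = 0.130).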

How the data were processed

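Total RNA of 5 PN1a and 6 PN1b glands was hybridised to Affymetrix MG_U74Av2 arrays. Per the labels and methods, the authors computed expression with dChip (perfect match minus mismatch model, quantile normalization; version not given in the sources used here) and deposited linear intensity values from 1 to 1938, of which 0.817% sat at the lowest. Values were taken to log2 with no pseudocount, and 66 array controls were left out. Probe sets were named from the platform annotation (10833 with 1 symbol, 396 with several, 1193 with none here). Left out were 3 probe sets that each carry several symbols, among them a symbol of these families. Groups were compared with limma 3.58.1 (R 4.3.3, lmFit and eBayes, two-sided), adjusted over 12422 probe sets. The test was checked on simulated data. A gene's median used its probe set with the highest mean. Given in full were called members, the 8 smallest adjusted p-values, and the mammary-linked members with the smallest adjusted p in each family; from the other lists, called genes and the next by adjusted p. Others mentioned were chosen after their values were seen. Members and lists were chosen with earlier results of these data known. The number of arrays limits the precision, with a median 95% half-width of 0.57 for members. Samples shared at most 1.24% identical values. The alternatives were the methods' t-test (p under 0.01), the label ending as block, scaling, a pseudocount of 16, a filter at the median level and samples left out.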

Additional observations from a re-analysis of the deposited data

Results flagged for a closer look

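Hoxb6 in PN1a 2 had a log2 intensity of 5.17, against 4.34 to 4.48 in the other PN1a samples. Its gap to the nearest of them was 0.831 of the group's range, past Dixon's limit for 5 samples. PN1a 2 also had the lowest fibroblast (5.07) and endothelial (2.65) marker means, and the part of these in the Hoxb6 value was not tested. The search covered 22 groups of named probe sets. Over all members, 13 of 150 groups held a sample past the limit, where chance gives about 1 in 20.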

How the results depend on the processing

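No paired analysis was possible because the labels give no replicate numbers shared by the groups, and the numbers used here follow the order of the accessions. The count of called members was 0 in limma and 2 by the methods' t-test, 1 with a filter at the median level (Six4, adjusted p = 0.0320) and 1 without PN1a 1 and 2 (Hoxa6, -1.22, adjusted p = 0.0291). With 1 sample left out it ran from 0 to 3. The calls were Hoxa6 without PN1a 2 (adjusted p = 0.0309), Dlx1 without PN1a 5 (0.0369), Hoxa6, Six4 and Cdx4 without PN1b 5 (0.0411, 0.0476 and 0.0452) and Six4 without PN1b 6 (0.0494). Over all probe sets those fits called 126 to 559.

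Median differences moved as follows. The filter at the median level left few genes per family, so its values are not shifts of whole clusters. It gave -0.29 for cluster A (3 genes), 0.27 for B (2), -0.81 for D (Hoxd8 alone), 0.21 for the sine oculis genes (Six4 alone), -0.29 for anterior (Hoxa2 alone) and 0.0502 for central Hox genes (6). The sine oculis genes became 0.24 and central Hox 0.066 both with the ending as a block and within ending 1, and central Hox became -0.0164 on the log2(value + 16) scale. Differences with the block equal those within ending 1 by design, here and for the members below, so they count as 1 check. Named members kept their direction except for Msx2 (0.43 with the block and within ending 1) and Meis1 (-0.14 in both, and -0.33 without PN1a 1 and 2). With 1 sample left out, cluster B ran from -0.0767 to 0.182 (the latter without PN1a 2), anterior Hox from -0.177 to 0.051 (the latter without PN1b 6) and Meis1 from -0.193 to 0.234, below 0 without PN1a 1, 2 or 4 or PN1b 1, 2 or 5. The other 226 values of named members kept their direction and side of the threshold. The other 320 medians moved by less than the spread between samples, which says little about their sign. That spread exceeded some medians themselves, as in cluster A (0.153 against -0.127) and Dlx (0.202 against -0.0777). Sign changes within ending 1 were thus among the 320, such as Dlx to 0.0205 and Lhx from 0.043 to -0.105.

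Over all probe sets, 309 were called in the full comparison, 31 with the ending as a block and 18 within ending 1, where fewer samples enter. Most members gave weak signals, and the 5 and 6 samples and the single line per group limit the precision. The causes of these shifts were not tested.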
